A study of Saccharomyces cerevisiae with 8 samples.

Results

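The genes described here are 36 genes of the yeast proteasome, its assembly and its activation together with RPN4, the gene of their shared transcription activator, 37 of the 5448 genes tested on these arrays. They were chosen by name: 7 of the outer alpha ring and 7 of the catalytic beta ring of the 20S core, 9 of the base and 9 of the lid of the 19S regulatory particle, RPN10, the assembly and activator genes UMP1, BLM10 and ECM29, and RPN4. Each of the 37 genes had 1 probe set, and each lay above the background level on all 8 arrays, so no member was lost to the filter on dim probe sets.

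The proteasome degrades proteins that carry ubiquitin chains. The regulatory particle binds the chain, removes it, unfolds the protein with a ring of ATPases and threads it into the core, where catalytic sites inside the beta rings cut it. In budding yeast Rpn4 activates most proteasome genes through a shared promoter element and is itself degraded rapidly by the proteasome, a feedback loop that ties synthesis of the complex to its activity.

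RNA from 8 cultures of Saccharomyces cerevisiae was measured on Affymetrix arrays, with 2 arrays for each of 4 strains, taken in separate experiments and cultures. BY4741 is the wild type. By its label A880 is BY4741 with POP2 deleted, a gene for a nuclease of the CCR4-NOT complex, which shortens messenger RNA tails. The labels make A880STM1 a transformant of A880 with STM1, which encodes a protein bound to ribosomes, and A880STM1K the same with the R237K form of STM1 (arginine to lysine, numbered as in the labels). Every culture was grown in synthetic complete medium on 2% glucose until its optical density was 1, then washed and kept for 12 hours on 2% glycerol, a carbon source that yeast must respire. The labels give neither the promoter nor the copy number of the added STM1. RNA came from whole cultures, so fewer cells that express a gene and less RNA per cell cannot be told apart.

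The arrays labelled A880STM1 and A880STM1K stand apart from the other 4 in several marker genes. POP2 gave signals of 883 and 814 on the BY4741 arrays and 0.221 and 0.452, below background, on the A880 arrays, but 181 and 286 on those labelled A880STM1 and 255 and 176 on those labelled A880STM1K, against their labels. STM1 read 2043 and 2566 in BY4741, 2960.3 and 3096 in A880, 9441 and 5027 in A880STM1, and 8697 and 8143 in A880STM1K. The summed signal of 6 haploid-specific genes lay between 4211 and 4937 on the BY4741 and A880 arrays and between 555 and 1180 on the other 4. Against A880 all 6 means were lower in both strains, with 6 called lower in A880STM1 and 5 in A880STM1K. Of all tested probe sets 13.1% were called lower in A880STM1 and 28% in A880STM1K. The sum of 7 a-cell genes fell from a range of 2942 to 3367 to a range of 675 to 940, with 5 of 7 called lower in each strain against A880. The sum of 4 alpha-cell genes did not separate these 4 arrays from the rest. It was 642 to 721 in BY4741, 440 to 484 in A880, 375 to 447 in A880STM1 and 856 to 911 in A880STM1K. In A880STM1K 3 of 4 were called higher against A880, beside 19.1% of all tested probe sets. All of these haploid-specific, a-cell and alpha-cell genes stayed above background on every array. These shifts move with every comparison of A880STM1 or A880STM1K with A880 or BY4741. Between A880STM1K and A880STM1 neither POP2, with means of 215 and 233, nor STM1 was called. There 2 of 6 haploid-specific, 2 of 7 a-cell and 3 of 4 alpha-cell genes were called higher and 0 lower. Of all tested probe sets 17.9% were higher there and 17.1% lower. The part of these shifts in the results below was not tested. The comparison of A880 with BY4741 uses no A880STM1 or A880STM1K array for its means, but its strains also differed in strain markers. Of URA3, LEU2, HIS3 and MET17, 1 was called higher and 1 lower in A880, beside 7.71% and 6.19% of all tested probe sets. URA3 read 3.32 and 1.14 in BY4741 and 5062 and 5537 in A880. LEU2 read 530 and 542 in BY4741, 248 and 214 in A880, 7704 and 3412 in A880STM1, and 9187 and 7640 in A880STM1K. The part of these differences was not tested either.

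Signals are MAS5 units on a linear scale, with each array scaled to the same trimmed mean. Changes are log2 ± SE from limma on log2 signal, fitted over all 8 arrays, with n = 2 per group. A gene is said to rise or fall where the p-value adjusted over all 5496 tested probe sets is below 0.05. The replicate arrays of A880 agreed most closely, with a median absolute log2 difference over the members of 0.0369, compared with 0.103 in BY4741, 0.225 in A880STM1 and 0.418 in A880STM1K.

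**Figure D1:**
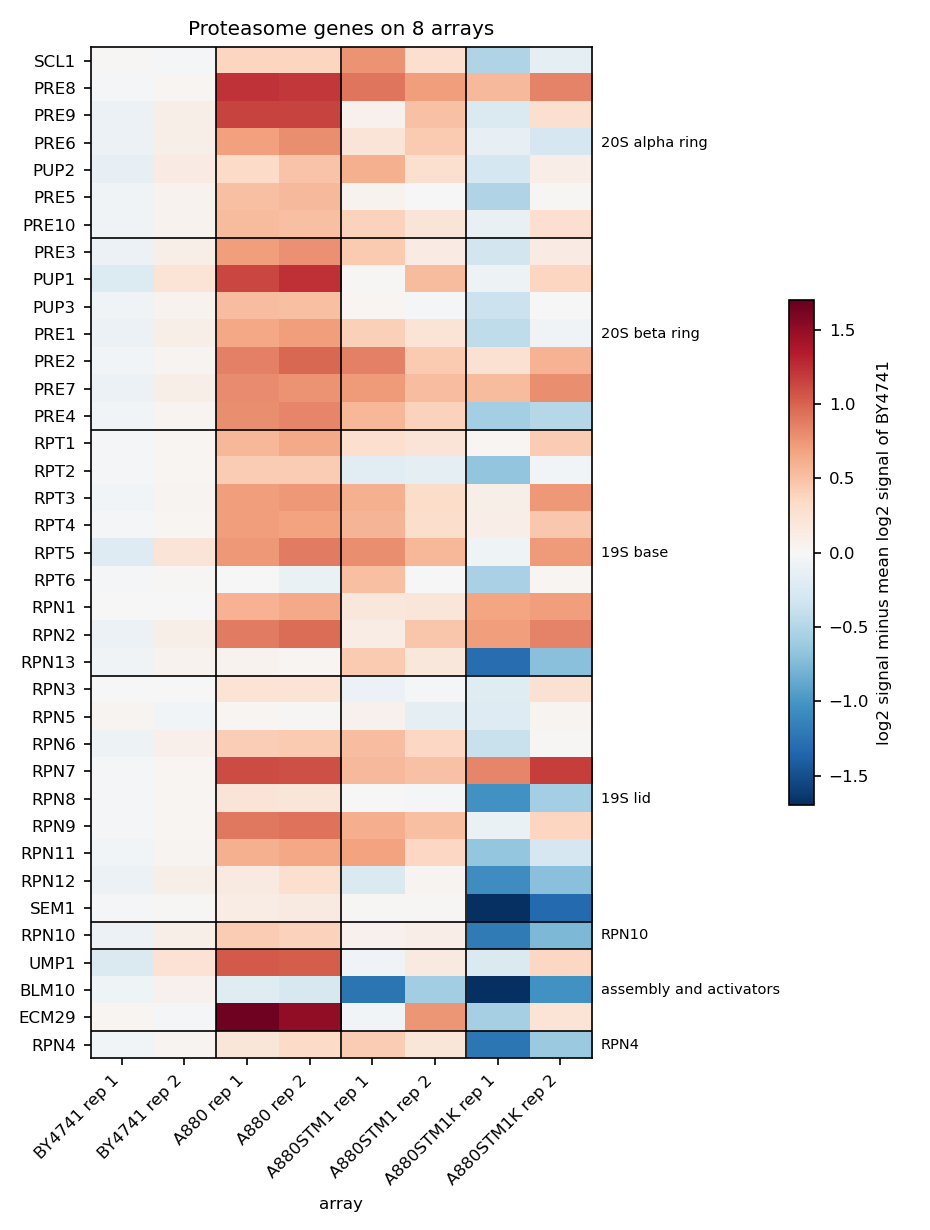
Heat map of the 37 genes (rows, grouped by subcomplex) on the 8 arrays (columns), coloured by log2 signal minus the mean log2 signal of that gene in BY4741. Most genes are above BY4741 on both A880 arrays, whereas the A880STM1K columns mix genes above and below BY4741 and their replicate 1 is the lower of the pair for 36 of 37 genes.

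The first comparison asks which transcripts differ in the strain labelled as lacking POP2. Of the 37 genes 12 rose and 0 fell in A880 against BY4741, where 7.71% of all tested probe sets rose and 6.19% fell. At an unadjusted p below 0.05 in the same limma fit, 23 were higher and 0 lower. The change was above 0 for 35 of the 37, with a median of log2 0.61, while the median over all tested probe sets was 0.02 and 51.2% of them were above 0. A880 had the highest of the 4 group means for 29 members and the lowest for 0, against 28.5% and 17.7% of all tested genes.

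Within the core, the beta ring moved most evenly. All 7 beta genes had changes above 0, from log2 0.52 to 1.18, and 4 of them rose. PUP1, the trypsin-like catalytic subunit, read 1221 and 1694 on the BY4741 arrays and 3148 and 3389 on the A880 arrays, a rise of log2 1.18 ± 0.26 with adjusted p = 0.0169. PRE2, the chymotrypsin-like catalytic subunit, read 2381 and 2557 in BY4741 and 4469.7 and 4875 in A880, a rise of log2 0.92 ± 0.22 with adjusted p = 0.0235. The 2 groups were well separated for both genes. PRE3, the third catalytic subunit, was also higher on both A880 arrays, at 4053 and 4258 against 2308 and 2667, but its change of log2 0.74 ± 0.23 had adjusted p = 0.0533 and was not called. PRE7 and PRE4, structural beta subunits, rose by log2 0.78 ± 0.21 (adjusted p = 0.0313) and 0.81 ± 0.20 (adjusted p = 0.0222).

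The alpha ring, which gates the entrance of the core, had all 7 changes above 0 and 3 genes that rose. PRE8 read 1382 and 1434 in BY4741 and 3302 and 3252 in A880, a rise of log2 1.22 ± 0.20 with adjusted p = 0.00519. PRE9, the only 20S subunit that yeast can live without, read 1485 and 1709 in BY4741 and 3531 and 3517 in A880, a rise of log2 1.15 ± 0.24 with adjusted p = 0.0142. PRE6 rose by log2 0.74 ± 0.20 (adjusted p = 0.0368). SCL1, at the other end of the ring's range, changed by log2 0.37 ± 0.23, with a 95% interval of -0.14 to 0.87 that includes 0.

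In the regulatory particle fewer genes passed the test, though several base genes fell just short of it. At an unadjusted p below 0.05 in limma, 6 of 9 base and 3 of 9 lid genes were higher. In the alpha and beta rings these counts were 5 of 7 and 7 of 7. RPT4 and RPN1 of the base both had adjusted p = 0.0542. RPN2, a scaffold of the base that also holds a ubiquitin receptor, was the 1 base gene of 9 that rose. Its signals were 1412 and 1619 in BY4741 and 2795 and 2909 in A880, a rise of log2 0.92 ± 0.21 with adjusted p = 0.019. The 6 ATPase genes RPT1 to RPT6 ranged from log2 -0.05 for RPT6 to 0.81 for RPT5. None was called, with adjusted p from 0.0542 for RPT4 to 0.907 for RPT6. In the lid, RPN7 and RPN9, both scaffold subunits, rose by log2 1.10 ± 0.20 (adjusted p = 0.00805) and 0.91 ± 0.22 (adjusted p = 0.0222). The median of the 9 lid genes was log2 0.23, the lowest of the 4 large groups, against 0.53 for the alpha ring, 0.78 for the beta ring and 0.61 for the base. RPN5 stood at 4006 and 3744 in BY4741 and 3955 and 3914 in A880, a difference of log2 0.02 ± 0.20 with a 95% interval of -0.43 to 0.48. SEM1, the smallest lid subunit, differed by log2 0.14 ± 0.21, with an interval of -0.33 to 0.61.

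The largest rise of the 37 was in ECM29, whose product tethers the core to the regulatory particle. Its signals were 509 and 489 in BY4741 and 1569 and 1421 in A880, a rise of log2 1.58 ± 0.33 with adjusted p = 0.0124, or 2.99-fold. UMP1, a chaperone of core assembly that is degraded when the core is complete, read 968 and 1362 in BY4741 and 2357 and 2336 in A880, a rise of log2 1.03 ± 0.26 with adjusted p = 0.0277. BLM10, an activator that caps the core in place of the regulatory particle, was on the other side, at 2997 and 3307 in BY4741 and 2729 and 2597 in A880, a difference of log2 -0.24 ± 0.30 that was not called. RPN4 itself read 3045 and 3233 in BY4741 and 3621 and 3919.8 in A880. Both A880 values were above both BY4741 values, but the change of log2 0.26 ± 0.24 had adjusted p = 0.489, with a 95% interval of -0.26 to 0.79.

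The count of calls in this comparison depended on the scaling and on the spread assumed for its 4 arrays. When any 1 of them was left out it was 0 in limma, with 11, 17, 14 and 11 genes at an unadjusted p below 0.05 without BY4741 replicate 1, BY4741 replicate 2, A880 replicate 1 and A880 replicate 2, while the median change stayed between log2 0.59 and 0.65. When only those 4 arrays were fitted, without the noisier A880STM1 and A880STM1K arrays, 30 rose, and with a weight for each group 29 did, but those fits also called far more of the whole table, 1629 and 1695 probe sets higher against 424. Quantile normalization gave 27 that rose, with 724 of all probe sets higher and 658 lower, and equal array medians 6 (PRE8, PRE9, PUP1, RPN2, RPN7 and ECM29), with 413 of all probe sets higher and 554 lower against 424 and 340.

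**Figure D2:**
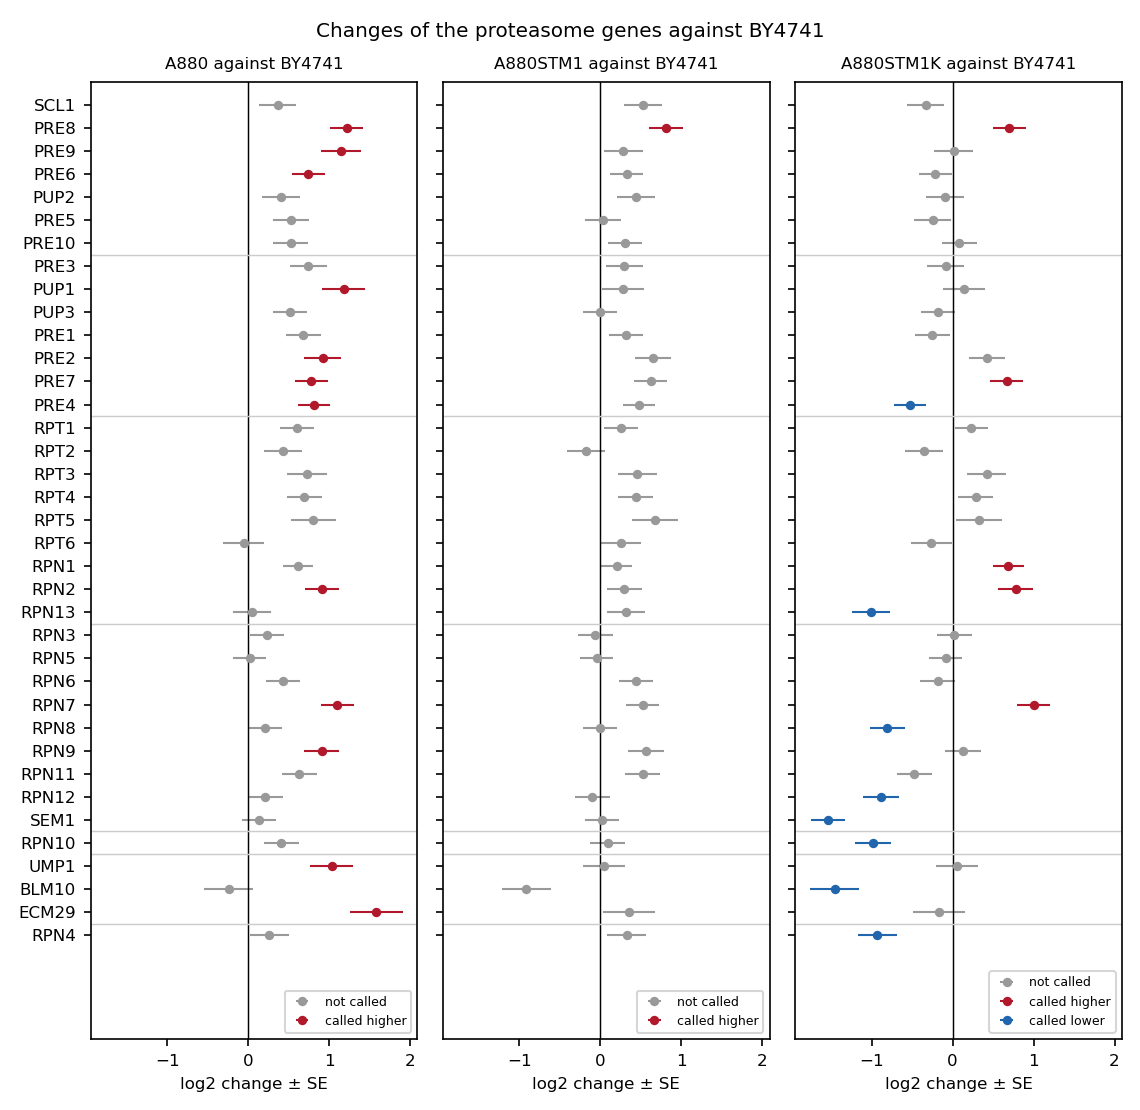
Change of each gene against BY4741 (log2, points, with bars of ± 1 SE of the limma fit, n = 2 per group) in the 3 other strains, with genes in the order of the heat map and grey lines between subcomplexes. In A880 the coloured points, those with adjusted p below 0.05, are all to the right of 0; in A880STM1 1 of 37 is called; in A880STM1K 5 are called to the right and 8 to the left.

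The second comparison sets A880STM1, by its label A880 with added STM1, against A880. These strains also differ in POP2 and in haploid-specific genes, and the part of added STM1 in any difference was not tested. Against A880, 4 of the 37 genes fell in A880STM1 and 0 rose, with 13.1% of all tested probe sets falling and 6.82% rising. In the limma fit 10 were lower and 0 higher at an unadjusted p below 0.05. The 4 were ECM29, UMP1, PUP1 and PRE9. ECM29 read 483 and 841 in A880STM1, both below the A880 values of 1569 and 1421, a fall of log2 -1.23 ± 0.33 with adjusted p = 0.0285. UMP1 read 1099 and 1279 against 2357 and 2336 in A880, a fall of log2 -0.98 ± 0.26 with adjusted p = 0.0286. PUP1 and PRE9 fell by 0.90 ± 0.26 (adjusted p = 0.0393) and 0.86 ± 0.24 (adjusted p = 0.0347) on the log2 scale. RPN4 stood at 4248 and 3631 in A880STM1, a difference of log2 0.06 ± 0.24 from A880 with an interval of -0.46 to 0.58.

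The count of calls depended on the scaling. Of the 2 other scalings only quantile normalization changed the shift of the members relative to the whole table. Their median was log2 -0.32 and that of all tested probe sets -0.27. Equal array medians add 1 constant to all log2 changes of a comparison, so the gap between these medians was kept by construction. Both medians then turned positive, at 0.07 and 0.12. As deposited, the gap differed between replicates. Replicate 1 of A880STM1 minus replicate 1 of A880 gave a median of log2 -0.26 for the members and -0.42 for all tested probe sets. For replicate 2 these were -0.39 and -0.11. None of the 37 was called in limma under equal array medians, with 1 at an unadjusted p below 0.05. That scaling gave 630 probe sets higher and 321 lower in the whole table, and quantile normalization 548 and 523, against 375 and 719; quantile normalization called 23 of the 37 lower, at a median of log2 -0.65 for the members and -0.08 for all tested probe sets. The 4 calls were also lost without either A880 array or without A880STM1 replicate 1 (adjusted p from 0.138 to 0.21 over the 4 genes and 3 settings), and leaving out either BY4741 array left 2, without PRE9 and PUP1 (adjusted p from 0.0598 to 0.0652). Leaving out either A880STM1K array raised the count to 9.

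Set against BY4741, A880STM1 had 1 gene that rose, PRE8, and 0 that fell, where 5.4% of all tested probe sets rose and 6.3% fell. At an unadjusted p below 0.05 in limma 9 were higher and 1, BLM10, was lower. PRE8 read 2638 and 2314 in A880STM1 against 1382 and 1434 in BY4741, a rise of log2 0.81 ± 0.20 with adjusted p = 0.0339. The change was above 0 for 30 of 37 genes, with a median of log2 0.31 while that of all tested probe sets was -0.24; under equal array medians these were 0.58 and 0.04. In the whole table equal array medians gave 358 probe sets higher and 193 lower against 297 and 346. The PRE8 call was lost without either BY4741 array, either A880 array or A880STM1 replicate 1 (adjusted p = 0.238, 0.225, 0.0855, 0.0849 and 0.104), and the count became 7, with 6 higher, without A880STM1 replicate 2 or either A880STM1K array. The comparisons of A880STM1 with A880 and with BY4741 share arrays with each other and with the first comparison, so their values are set side by side only. For ECM29, for example, A880 differed from BY4741 by log2 1.58, A880STM1 from A880 by -1.23 and A880STM1 from BY4741 by 0.35 ± 0.33, the last not called.

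The third comparison sets A880STM1K, by its label A880 with the R237K form of STM1, against A880, with the same limit. Against A880, 22 of the 37 genes fell in A880STM1K and 0 rose, where 28% of all tested probe sets fell and 19.1% rose. In limma 24 were lower and 0 higher at an unadjusted p below 0.05. The median of the 37 was log2 -0.78 against -0.17 for all tested probe sets, and 36 of 37 were below 0. By subcomplex the genes that fell were 4 of 7 in the alpha ring, 5 of 7 in the beta ring, 2 of 9 in the base, 6 of 9 in the lid, RPN10, UMP1, BLM10, ECM29 and RPN4.

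RPN4 read 3621 and 3919.8 in A880 and 1341 and 2029.7 in A880STM1K, a fall of log2 -1.19 ± 0.24 with adjusted p = 0.00243. Its A880STM1K signals were the lowest of the 8 arrays. Against A880STM1, where it read 4248 and 3631, RPN4 fell by log2 -1.25 ± 0.24 (adjusted p = 0.00266), and against BY4741 it fell by log2 -0.93 ± 0.24 (adjusted p = 0.00818). The call against A880STM1 held under every alternative tried. Those against A880 and against BY4741 were lost with equal array medians, and that against BY4741 also without BY4741 replicate 2.

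SEM1, the lid gene with the deepest fall, read 2896 and 2988 in BY4741, 3214 and 3263 in A880, 2973 and 2993 in A880STM1, and 877 and 1173 in A880STM1K. The 6 arrays of the other strains lay close together and both A880STM1K arrays lay far below them. SEM1 fell by log2 -1.67 ± 0.21 against A880 (adjusted p = 0.000215), by -1.56 ± 0.21 against A880STM1 (adjusted p = 0.000442) and by -1.54 ± 0.21 against BY4741 (adjusted p = 0.000261). All 3 calls held under every alternative tried.

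RPN10, a ubiquitin receptor at the joint of base and lid, read 2017 and 2329 in BY4741, 2913 and 2851 in A880, 2276 and 2338 in A880STM1, and 940.3 and 1282 in A880STM1K. It fell by log2 -1.39 ± 0.22 against A880 (adjusted p = 0.000716), by -1.07 ± 0.22 against A880STM1 (adjusted p = 0.00409) and by -0.98 ± 0.22 against BY4741 (adjusted p = 0.00411). The last call was lost without BY4741 replicate 2. RPN13, the receptor held by RPN2, read 2847 and 3121 in BY4741, 3100.3 and 3056 in A880, 4049 and 3407 in A880STM1, and 1219.6 and 1817 in A880STM1K. Its falls were log2 -1.05 ± 0.24 against A880 (adjusted p = 0.00465), -1.32 ± 0.24 against A880STM1 (adjusted p = 0.00192) and -1.0 ± 0.24 against BY4741 (adjusted p = 0.00529), the first and the last lost with equal array medians and the last also without BY4741 replicate 2. The genes of all 3 subunits had A880STM1K signals below those of the other 6 arrays.

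RPN11, the lid enzyme that removes ubiquitin chains, fell by log2 -1.10 ± 0.22 against A880 (adjusted p = 0.00242) and by -0.99 ± 0.22 against A880STM1 (adjusted p = 0.00616). Its partner in the lid, RPN8, fell by log2 -1.01 ± 0.21 (adjusted p = 0.00325) and -0.80 ± 0.21 (adjusted p = 0.0149) in the same comparisons, and RPN12, a lid subunit that joins late in assembly, by -1.09 ± 0.22 (adjusted p = 0.00253) and -0.78 ± 0.22 (adjusted p = 0.019). RPN8 and RPN11 lost their calls against A880 with equal array medians. The last RPN12 call was lost without A880STM1 replicate 2 (adjusted p = 0.0597) or A880STM1K replicate 1. The calls of RPN8 and RPN12 against A880STM1, with those of SCL1 and RPN6, were also lost when only the 4 arrays compared were fitted (adjusted p from 0.114 to 0.28) and with a weight for each group (adjusted p from 0.0735 to 0.192). In the beta ring PRE4 read 3779 and 3895 in A880, 3232 and 2868 in A880STM1, and 1469 and 1560.1 in A880STM1K, a fall of log2 -1.34 ± 0.20 against A880 (adjusted p = 0.000473) and of -1.01 ± 0.20 against A880STM1 (adjusted p = 0.00304). PRE4 was the only beta gene called in the second of these.

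**Figure D3:**
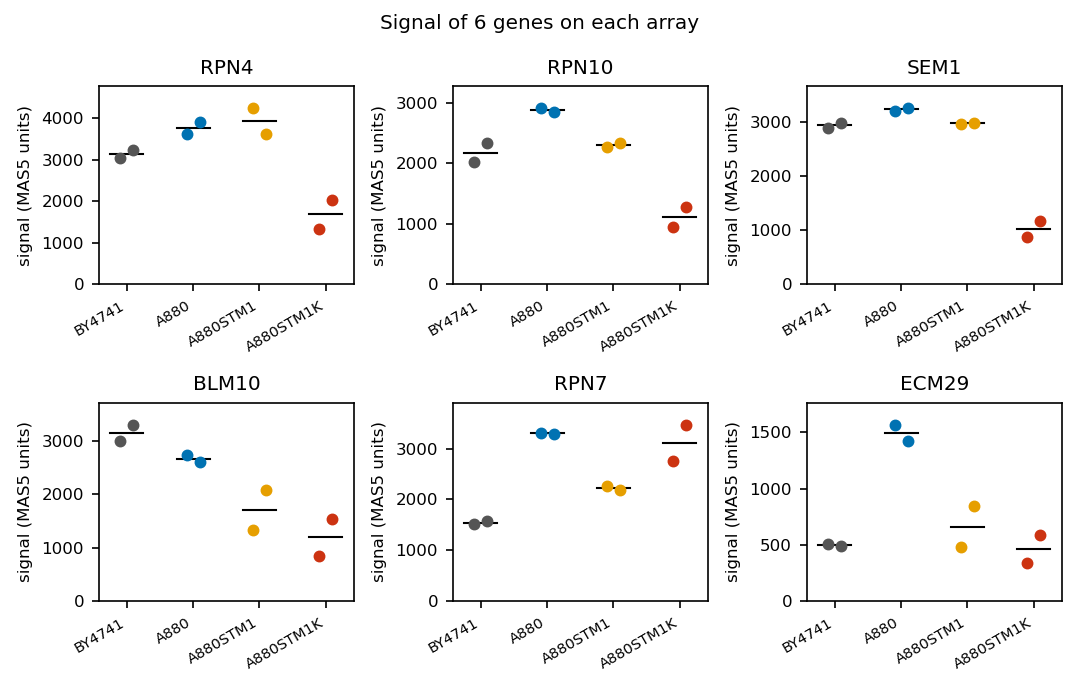
Signal (MAS5 units, linear axes from 0) of 6 genes on each of the 8 arrays, with 2 points per strain and a line at their mean. RPN4, RPN10 and SEM1 are lowest on the 2 A880STM1K arrays; RPN7 is higher there than in BY4741; ECM29 is highest in A880; BLM10 is highest in BY4741.

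15 members were not called against A880. RPN7, a lid subunit that SEM1 binds, read 3314 and 3284 in A880, 2255 and 2178 in A880STM1, and 2746 and 3472 in A880STM1K, a difference of log2 -0.10 ± 0.20 against A880 with a 95% interval of -0.55 to 0.36. RPN1, a base scaffold that docks ubiquitin-like domains, read 4455 and 4641 in A880 and 4729 and 4852 in A880STM1K, a difference of log2 0.08 ± 0.19 with an interval of -0.34 to 0.49. RPN2, at 2795 and 2909 in A880 and 2478 and 2715 in A880STM1K, differed by log2 -0.14 ± 0.21 with an interval of -0.61 to 0.33, and PRE7 by log2 -0.11 ± 0.21 with an interval of -0.57 to 0.34. Among the ATPases only RPT2 fell, by log2 -0.78 ± 0.23 (adjusted p = 0.0187). Both activators fell against A880, BLM10 by log2 -1.22 ± 0.30 (adjusted p = 0.00792) and ECM29 by -1.75 ± 0.33 (adjusted p = 0.00174). The BLM10 call was lost with equal array medians.

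Of the 22 calls against A880, 6 held under every alternative tried: PRE9, PRE4, RPN12, SEM1, RPN10 and ECM29. Equal array medians kept 7 of the 22, at a median of log2 -0.43 for the members and 0.18 for all tested probe sets, with 1610 probe sets higher and 1099 lower in the whole table against 1051 and 1538. Without A880 replicate 1, A880 replicate 2 or A880STM1K replicate 1 the counts were 14, 11 and 14, with adjusted p of the lost calls from 0.0504 to 0.187; SCL1 and RPN6 were also lost without either BY4741 array (adjusted p from 0.0599 to 0.0788).

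The direct comparison of the altered with the unaltered STM1 strain had 10 genes that fell and 0 that rose, where 17.1% of all tested probe sets fell and 17.9% rose. In limma 13 were lower and 3 higher (RPN1, RPN2 and RPN7) at an unadjusted p below 0.05. The 10 comprised 5 lid genes (RPN6, RPN8, RPN11, RPN12 and SEM1), RPN10, RPN13, RPN4, PRE4 and SCL1. The median of the 37 was log2 -0.35 against 0.10 for all tested probe sets. The A880STM1K arrays differed from each other in these genes: all but 1 of the 37 were lower in replicate 1, by a median of log2 -0.42, while over all tested probe sets the median difference between the 2 arrays was 0.11. Against the A880STM1 mean, the median member was at log2 -0.54 on replicate 1, with 34 of 37 below 0, and at -0.06 on replicate 2, with 22 of 37 below 0. With equal array medians SCL1 and RPN6 lost their calls. Without replicate 1 the fit called 7 lower and 1 higher, and SCL1, RPN6 and RPN12 lost their calls (adjusted p from 0.0571 to 0.138); without replicate 2 it called 16 lower. RPN6 was also lost without either BY4741 array, either A880 array or A880STM1 replicate 1 (adjusted p from 0.0881 to 0.102). The 6 calls that held under every alternative were PRE4, RPN13, RPN11, SEM1, RPN10 and RPN4.

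**Figure D4:**
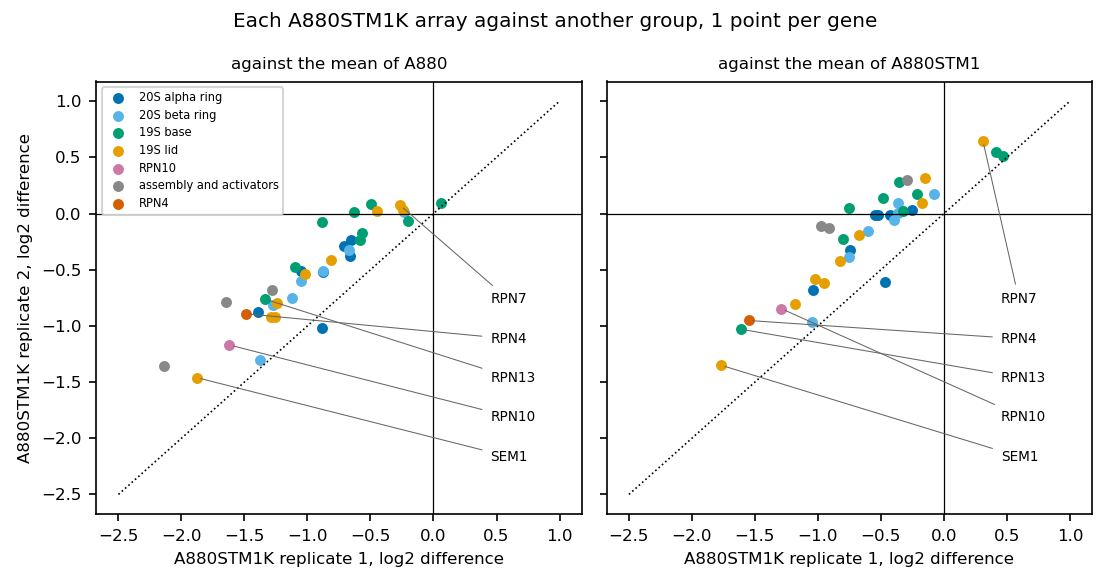
Log2 signal on A880STM1K replicate 1 (horizontal) and replicate 2 (vertical) minus the mean log2 signal of A880 (left) or A880STM1 (right), with 1 point per gene coloured by subcomplex and a dotted line where the 2 arrays are equal. All but 1 of the points lie above the dotted line, and SEM1, RPN10, RPN13 and RPN4 are far below 0 on both arrays.

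Against BY4741, members were called in both directions in A880STM1K. Here 5 genes rose and 8 fell, where 21.2% of all tested probe sets rose and 28.3% fell, and the median of the 37 was log2 -0.10 against -0.11 over the whole table. The 5 that rose were RPN7, RPN2, RPN1, PRE8 and PRE7. RPN7 read 1505 and 1576 in BY4741 and 2746 and 3472 in A880STM1K, a rise of log2 1.00 ± 0.20 with adjusted p = 0.00243. RPN2 read 1412 and 1619 in BY4741 and 2478 and 2715 in A880STM1K, a rise of log2 0.78 ± 0.21 with adjusted p = 0.0113, and RPN1, PRE8 and PRE7 rose by 0.69 ± 0.19 (adjusted p = 0.0118), 0.70 ± 0.20 (adjusted p = 0.0159) and 0.67 ± 0.21 (adjusted p = 0.0202). For each of the 5 both A880STM1K arrays lay above both BY4741 arrays. How many of all tested genes did so was not counted.

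The 8 that fell were SEM1, BLM10, RPN13, RPN10, RPN4, RPN12, RPN8 and PRE4. BLM10 read 2997 and 3307 in BY4741, 2729 and 2597 in A880, 1334 and 2087 in A880STM1, and 850.5 and 1544 in A880STM1K, a fall of log2 -1.46 ± 0.30 against BY4741 with adjusted p = 0.00277. RPN12 and RPN8 fell by log2 -0.88 ± 0.22 (adjusted p = 0.00716) and -0.81 ± 0.21 (adjusted p = 0.00979), and PRE4 by -0.53 ± 0.20 (adjusted p = 0.044). Of the 9 lid genes 1 rose (RPN7) and 3 fell (RPN8, RPN12 and SEM1). Of the 9 base genes 2 rose (RPN1 and RPN2) and 1 fell (RPN13). With 21.2% of all tested probe sets rising and 28.3% falling, calls in both directions are not particular to these subcomplexes. The calls of RPN7, SEM1 and BLM10 held under every alternative. Without BY4741 replicate 1 and BY4741 replicate 2 the counts were 7 and 3. PRE7 and PRE4 were also lost without either A880 array, PRE4 without A880STM1K replicate 1 and PRE7 without A880STM1K replicate 2 (adjusted p from 0.0556 to 0.117). The PRE4 call was further lost when only the 4 arrays compared were fitted (adjusted p = 0.0585), with a weight for each group (0.0506), without an intensity trend (0.0702) and over all probe sets of the array (0.0924). Equal array medians gave 5 that rose and 4 that fell, without PRE4, RPN13, RPN8 and RPN4, with a median of 0.14 for the members and 0.12 for all tested probe sets, and 1489 higher and 1306 lower in the whole table against 1164 and 1556.

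In the gene table, the 5 genes that rose in A880STM1K against BY4741 were 726 to 2982 bases long, with a median of 1290. The 8 that fell were 270 to 6432 bases long, with a median of 816, and the 24 not called 447 to 5607 bases, with a median of 894. The ranges overlap, and a trend with length was not tested. Of the 37 genes, 3 pairs lie close together on a chromosome, PRE4 and RPN12 with 1 gene between them, RPT4 and RPN8 with 1 and PRE2 and RPN7 with 4. PRE4 and RPN12 both fell in the 3 comparisons of A880STM1K with other strains, which share the A880STM1K arrays. In A880STM1K against BY4741 RPN8 fell while RPT4 changed by log2 0.28 ± 0.21, not called. RPN7 rose there while PRE2 changed in the same direction by 0.42 ± 0.22, not called. The pairs behaved otherwise in A880 against BY4741. There PRE2 and RPN7 both rose, PRE4 rose while RPN12 changed by log2 0.21 ± 0.22, not called, and neither RPT4 nor RPN8 was called.

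The other genes of the ubiquitin pathway were read as 62 genes in 9 lists. In A880 against BY4741 6 of the 62 rose and 1 fell, beside 7.71% and 6.19% of all tested probe sets. PBA1 and RPN14, chaperones that help to build the core and the base, were 2 of 10 assembly chaperones that rose, by log2 1.23 ± 0.22 (adjusted p = 0.00642) and 1.34 ± 0.29 (adjusted p = 0.0146). UBP6, a deubiquitinating enzyme that sits on the proteasome, was 1 of 5 shuttle factors and partners that rose, from 1229 and 1240.2 to 2567 and 2729, or log2 1.10 ± 0.21 (adjusted p = 0.00847). UBA1, the ubiquitin-activating enzyme (1 of 5 genes of ubiquitin and its activation), DOA1, a partner of the CDC48 unfoldase (1 of 9), and UBC6, a ubiquitin-conjugating enzyme (1 of 11), rose by log2 1.03 ± 0.21 (adjusted p = 0.0107), 1.05 ± 0.23 (adjusted p = 0.0156) and 0.74 ± 0.20 (adjusted p = 0.0368). PDR3, a regulator known to act on the RPN4 promoter, fell by log2 -1.27 ± 0.30 (adjusted p = 0.0198), 1 of 4 such factors. In the limma fit the 7 ligases, 9 further deubiquitinating enzymes and 2 factors of Rpn4 turnover had no call, with 1 ligase and 1 deubiquitinating enzyme higher and 1 deubiquitinating enzyme lower at an unadjusted p below 0.05.

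In A880STM1 against A880, 15 of the 62 fell and 0 rose, beside 13.1% and 6.82% of all tested probe sets, with 21 lower and 4 higher at an unadjusted p below 0.05 in limma. Those that fell were 1 assembly chaperone (PBA1, log2 -1.49 ± 0.22, adjusted p = 0.00234), UBA1, 2 conjugating enzymes (UBC6 and UBC13), RAD23, which shuttles ubiquitinated proteins to the proteasome, 2 CDC48 partners (DOA1 and UFD1), the ligase SSM4, 4 deubiquitinating enzymes (UBP1, UBP3, UBP12 and UBP14), YAP1 and PDR1 of the factors that act on RPN4, and MUB1. YAP1 fell by log2 -1.34 ± 0.29 (adjusted p = 0.0137) while RPN4 itself was not called. Mub1 and Ubr2 form the ligase that marks Rpn4 for degradation, and MUB1 fell by log2 -0.99 ± 0.26 (adjusted p = 0.026). Against BY4741, A880STM1 had 4 of the 62 that rose (RPN14, UBC4, UBP6 and RAD6) and 2 that fell, YAP1 and HSF1, beside 5.4% and 6.3% of all tested probe sets.

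In A880STM1K against A880, 23 of the 62 fell and 6 rose, beside 28% and 19.1% of all tested probe sets. Among the 10 assembly chaperones 5 fell, led by FUB1 at log2 -1.37 ± 0.22 (adjusted p = 0.000865) and NAS2 at -0.95 ± 0.20 (adjusted p = 0.0032). Of 11 conjugating enzymes 6 fell, led by UBC5, which read 3282 and 3275 in A880 and 589.7 and 873 in A880STM1K, a fall of log2 -2.19 ± 0.24 (adjusted p = 9.07e-05). RAD6, the conjugating enzyme of the N-degron pathway, fell by log2 -1.78 ± 0.29 (adjusted p = 0.000945), UBC7 by -1.30 ± 0.22 (adjusted p = 0.00107) and UBC8 by -1.43 ± 0.26 (adjusted p = 0.00164). The ligases HRD1 and SSM4, which act in degradation from the endoplasmic reticulum, fell by log2 -1.36 ± 0.24 (adjusted p = 0.00126) and -1.11 ± 0.22 (adjusted p = 0.00237), and RSP5 rose by 0.92 ± 0.23 (adjusted p = 0.00828). UFD1 and OTU1 fell and DOA1 rose among the 9 CDC48 partners, RAD23 fell among the shuttle factors, and UBP3, UBP12 and UBP15 fell among the deubiquitinating enzymes.

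Of the 5 genes of ubiquitin and its activation 3 rose in the same comparison, where 19.1% of all tested probe sets rose, and UBI4 and UBA1 were not called. RPL40A, RPL40B and RPS31, which encode ubiquitin fused to a ribosomal protein, rose by log2 0.86 ± 0.27 (adjusted p = 0.023), 1.06 ± 0.30 (adjusted p = 0.0139) and 1.02 ± 0.32 (adjusted p = 0.0247). RPL40A and RPL40B are near-identical copies, so which of them changed is uncertain. All 3 calls held under both other scalings but were lost without A880 replicate 1 or A880STM1K replicate 1, and those of RPL40A and RPS31 also without A880 replicate 2. UBI4, the stress-induced polyubiquitin gene, read 6112 and 6366 in A880 and 7867 and 7976 in A880STM1K.

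Among the regulators of RPN4, PDR3 rose in A880STM1K, from 167 and 141 in A880 to 723 and 731, by log2 2.24 ± 0.30 (adjusted p = 0.000287). YAP1 and PDR1 fell by log2 -1.10 ± 0.29 (adjusted p = 0.00963) and -0.91 ± 0.23 (adjusted p = 0.00892), and HSF1 was not called. Both turnover factors fell, MUB1 by log2 -0.94 ± 0.26 (adjusted p = 0.0128) and UBR2 by -1.01 ± 0.32 (adjusted p = 0.0229). Of all tested probe sets 28% fell and 19.1% rose in A880STM1K against A880. The PDR3 call held under both other scalings and with each array left out in turn. The calls of YAP1, PDR1, MUB1 and UBR2 held under both scalings and were lost without A880 replicate 1, those of MUB1 and UBR2 also without A880 replicate 2, that of YAP1 without A880STM1K replicate 1 and that of UBR2 without A880STM1K replicate 2. Protein levels were not measured.

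In A880STM1K against A880STM1, 10 of the 62 fell and 6 rose, beside 17.1% and 17.9% of all tested probe sets. The falls were 5 conjugating enzymes, led by RAD6, at 2858 and 1773 in A880STM1 and 449 and 277 in A880STM1K (log2 -2.67 ± 0.29, adjusted p = 0.000144), with UBC7, UBC5, UBC8 and CDC34, and FUB1, NAS2, IRC25, HRD1 and OTU1. The rises were DOA1 (log2 1.82 ± 0.23, adjusted p = 0.000283), PDR3 (log2 1.94 ± 0.30, adjusted p = 0.000842), RSP5, UFD2, UBP10 and UBA1. Against BY4741, A880STM1K had 16 that fell and 10 that rose, beside 28.3% and 21.2% of all tested probe sets, with UBC5 lowest at log2 -2.26 ± 0.24 (adjusted p = 5.66e-05) and DOA1 highest at log2 2.03 ± 0.23 (adjusted p = 7.96e-05).

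For the pathway lists the other scalings and the fits with 1 array left out were added after the data were seen. Calls that held under all of them were 0 of 7 in A880 against BY4741, 1 of 15 (PBA1) in A880STM1 against A880, 0 of 6 in A880STM1 against BY4741, 9 of 29 in A880STM1K against A880, 11 of 16 in A880STM1K against A880STM1 and 11 of 26 in A880STM1K against BY4741. In A880STM1K against A880 the 9 were FUB1, RAD6, UBC5, UBC7, UBC8, UFD1, SSM4, HRD1 and PDR3. RAD6, UBC5, UBC7, UBC8, FUB1 and HRD1 held in all 3 comparisons of A880STM1K. Over the 62 genes the median in A880STM1 against A880 was log2 -0.34 as deposited and 0.05 with equal array medians, which left 5 that fell and 2 that rose.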

How the data were processed

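The deposited intensity values are linear and, per the submitters' processing notes, come from MAS5. No source gives its version or settings, and each array has its own column. All 8 arrays had been brought to 1 level, with means between 500.15 and 500.26 once the top and bottom 2% of values were dropped. The probe table names 1 S. cerevisiae gene for 5498 of 10928 probe sets. The gene table of assembly R64 updated 12 symbols and gave lengths and neighbours. Neighbours were found by ordering protein-coding genes on each chromosome by start position. UBC10 was read as PEX4. Background was set on each array from 1746 probe sets of another yeast species, at their 90th percentile (5.15 to 8.40 signal units). The test covered the 5496 probe sets that exceeded it on 2 or more arrays.

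Group means of log2 intensity over 8 arrays were modelled in R 4.3.3 with limma 3.58.1, using eBayes with a trend on intensity, and adjusted by Benjamini-Hochberg within each of 6 contrasts. An adjusted p below 0.05 was a call. There were 4 residual degrees of freedom, and the prior had a median of 6.56. Intervals are 95% from this fit. Precision is set by having only 2 arrays per group.

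The members and lists were chosen with earlier results of these data known. Every member may be named, POP2 and STM1 on each array, and up to 4 called genes of each list per contrast by smallest p; other called list genes are given by name only and were chosen after their values were seen. The alternatives changed the scaling (equal array medians or quantile normalization), added a pseudocount of 16, set a floor at background, dropped or tightened the filter, tested all probe sets of the array, left out the trend, added a replicate block, fitted only the 4 arrays compared, weighted groups, called at adjusted p below 0.01 or left out each array in turn. The code was tested on simulated data.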

Additional observations from a re-analysis of the deposited data

How the results depend on the processing

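No called change of a member turned its sign under any alternative. Counts of called proteasome genes are given as A880 against BY4741, A880STM1 against A880, A880STM1 against BY4741, A880STM1K against A880, A880STM1K against A880STM1 and A880STM1K against BY4741; they were 12, 4, 1, 22, 10 and 13 as reported. Quantile normalization gave 27, 23, 2, 34, 13 and 16, and equal array medians 6, 0, 1, 7, 8 and 9. Fitting only the 4 arrays compared gave 30, 4, 0, 20, 6 and 12, and weights per group 29, 2, 0, 22, 6 and 12. Adjusted p below 0.01 gave 2, 0, 0, 14, 6 and 8. All probe sets of the array gave 10, 2, 0, 20, 9 and 12, and no intensity trend 10, 2, 0, 21, 9 and 12. A pseudocount, a floor at background and both filters on dim probe sets changed no count. With 1 array left out the counts ranged from 0 to 23, 0 to 9, 0 to 7, 11 to 30, 8 to 16 and 3 to 14. Where a comparison loses 1 of its own arrays, its group is a lone array assumed to vary like the others. Where limma called 0, an unadjusted p below 0.05 was reached by between 1 and 17 members.

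The replicate number as a block gave 14, 4, 2, 22, 10 and 12. In the last of these PRE4 was lost (adjusted p = 0.0557). The numbers were not taken as pairing the samples, since the deviations of same-numbered arrays correlated between 0.0367 (A880 with A880STM1) and 0.287 over the 6 pairs of groups and the labels do not tie a number to a shared culture day. The cause of the other differences was not tested. Weakly expressed genes are limited by background, but all members lay above it on every array.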
